A study of Arabidopsis thaliana with 12 samples.

Results

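Leaf transcripts of ADR1-L2 DV *sadr1-26.6*, a suppressed line, were set against those of ADR1-L2 DV, the autoimmune line in which the suppressor was found. The comparison holds 6 of the 12 samples of the series, 3 leaf samples of each genotype as their titles give them, and asks which transcripts differ when SADR1 is mutated while the activated helper receptor is present. Plants of both genotypes are *Arabidopsis thaliana* Col-0 that carry the *adr1-l2-4* allele and a transgene expressing ADR1-L2 D484V from the native *ADR1-L2* promoter. The D484V substitution lies in the MHD motif and mimics an activated receptor. ADR1-L2 DV *sadr1-26.6* carries, in addition, a mutation in *SADR1* recovered from a mutagenised population of that line. A second suppressed line, ADR1-L2 DV *sadr1-30.4*, and wild-type Col-0, with 3 samples each, appear here as values side by side. Plants were grown in short days, and their age at sampling is not given in the sources used here. Whether the sequenced *sadr1-26.6* plants had been freed of other mutations of the screen is also not given in them, and *sadr1-26.6* here stands for that line.

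Plant NLR proteins are intracellular immune receptors. Those with an N-terminal TIR domain (TNLs) detect pathogen effectors, and their TIR domains make small nucleotide signals that are read by EDS1 together with PAD4 or SAG101. These complexes engage the RPW8-type helper NLRs (RNLs), the ADR1 and NRG1 families, which form calcium-permeable channels and drive salicylic acid production, transcriptional defense and cell death. An RNL that is active without infection gives autoimmunity, in which defense genes are switched on at the cost of growth. SADR1 is itself a TNL, placed head to head with a second TNL gene, *SADR1-P1*.

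The deposited table holds 1 whole-number read count per gene and genotype, pooled over the 3 samples, for 28496 genes. Summed over genes, the *sadr1-26.6* column came to 20013826 reads and the ADR1-L2 DV column to 21277026, beside 20613029 for *sadr1-30.4* and 20148132 for Col-0. Whether the pool is a sum or a mean of the samples is not stated. Reads were scaled between genotypes by the median of ratios, and each ratio is log2 of scaled reads plus 1 in *sadr1-26.6* over ADR1-L2 DV. With 1 value per genotype the spread between plants could not be measured, so no p-value is given and no difference below has a replicate check. Each ratio has an exact 95% counting interval, called its interval below, which covers the counting error of the reads alone. A gene was called lower or higher in *sadr1-26.6* where its ratio was at least 2-fold and that interval excluded equality.

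Of 17939 genes with a mean of at least 10 scaled reads, 1414 (7.88%) were called lower in *sadr1-26.6* than in ADR1-L2 DV and 1217 (6.78%) higher, or 14.7% in either direction. Of the 30 gene lists described below, those of salicylic acid output and leaf senescence had the lowest median ratios among lists with more than 1 counted gene, and those of aliphatic glucosinolates and of cold and abscisic acid the highest. The middle of the distribution sat close to equality, with quartiles at log2 ratios of -0.35 and 0.37 and a median of -0.01. The tails were unequal. At 16-fold or more, 64 genes were lower and 23 higher, and at 4-fold, 400 were lower and 223 higher. The split of the calls depended on the scaling. Scaled to total reads, which moved the median of all genes by -0.26, 2124 genes were called lower and 768 higher, so that 73.4% of the calls were lower, beside 53.7% with the median of ratios. The 56 photosynthesis genes of the lists below took 23.5% of all reads in *sadr1-26.6* and 16.4% in ADR1-L2 DV, beside 23.6% in *sadr1-30.4* and 22.9% in Col-0. Their part in the difference between the scalings was not tested.

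**Figure D1:**
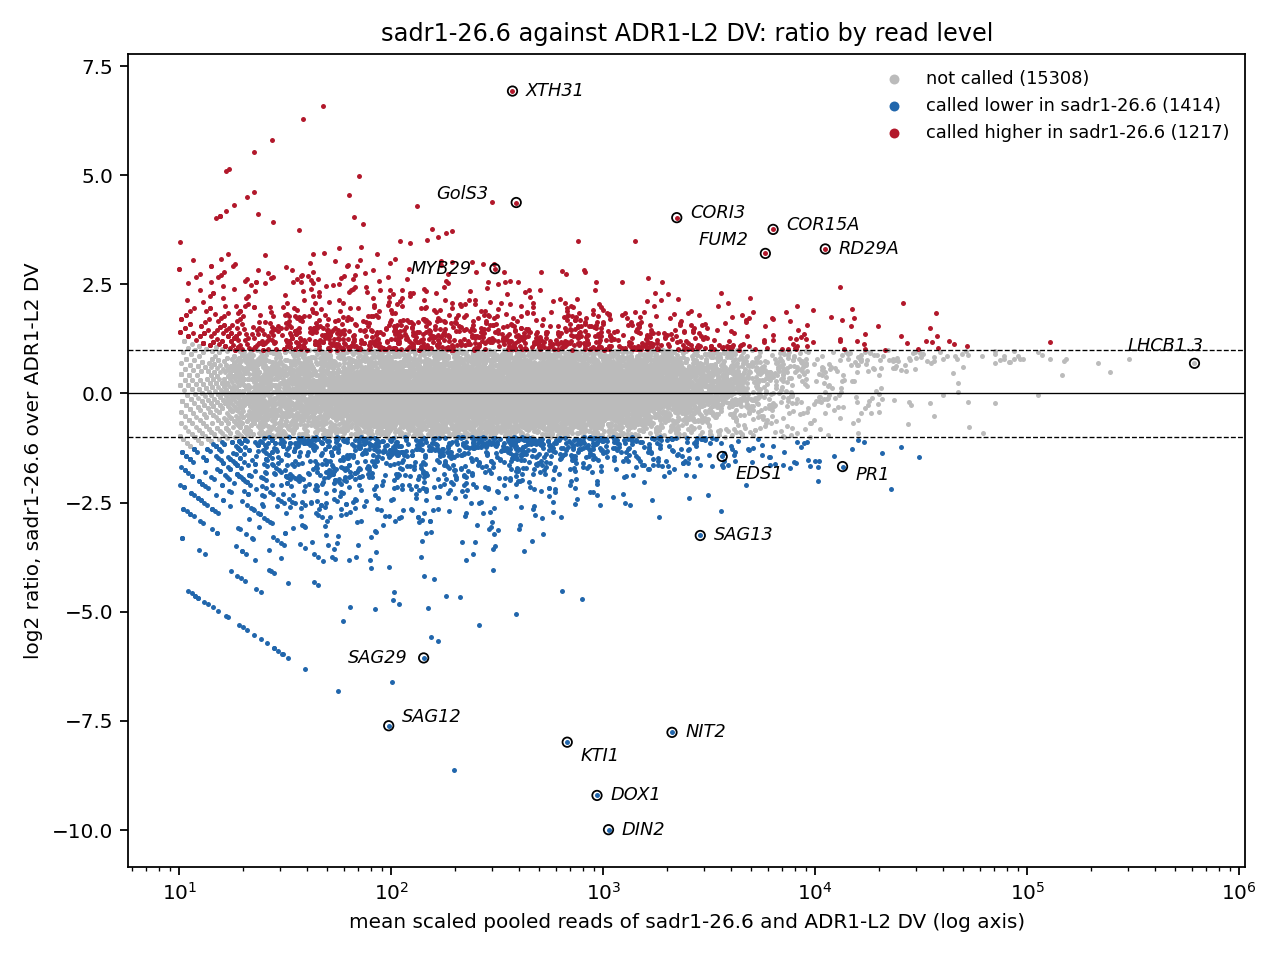
Log2 ratio of *sadr1-26.6* over ADR1-L2 DV for each of the 17939 genes counted (vertical axis) against the mean scaled pooled reads of both genotypes (horizontal log axis), with genes called lower in blue, called higher in red and the rest in grey, dashed lines at 2-fold and some named genes circled. *DIN2*, *DOX1*, *KTI1* and *NIT2* lie far below the cloud among well-read genes, while *XTH31* lies farthest above it.

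*SADR1* (AT4G36150, chromosome 4, 17104542 to 17108825 on the plus strand of TAIR10.1) gave 478 scaled reads in *sadr1-26.6* and 594 in ADR1-L2 DV, beside 350.2 in *sadr1-30.4* and 398 in Col-0. Its log2 ratio was -0.31 (95% counting interval -0.49 to -0.14), so the mutated gene was transcribed and was not called. A mutation from such a screen need not change a transcript level, and the level of *SADR1* therefore does not check the genotype labels. *SADR1-P1* (AT4G36140, 17098612 to 17104576 on the minus strand), whose annotated start overlaps that of *SADR1* by 35 bases, gave 705 scaled reads in *sadr1-26.6* and 913 in ADR1-L2 DV, a log2 ratio of -0.37. Strand use in the counting is not stated, so reads in the shared bases cannot be assigned to one of the pair.

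Of 11 genes for helper receptors, the EDS1 family and the SADR1 pair, 6 were called lower in *sadr1-26.6*, beside 7.88% of all genes counted, and none was called higher. *ADR1-L2* (AT5G04720, chromosome 5, 1360589 to 1363907) had 3511 scaled reads in *sadr1-26.6* and 7258 in ADR1-L2 DV, a 2.07-fold difference (log2 ratio -1.05, interval -1.11 to -0.99), beside 1916 in *sadr1-30.4* and 1192 in Col-0. In the lines with the transgene, the counts do not separate its reads from any of the resident *adr1-l2-4* locus. The level in *sadr1-26.6* thus lay between those of ADR1-L2 DV and Col-0, above that of the other suppressed line. *ADR1*, a second RNL, had 463 scaled reads in *sadr1-26.6* and 1319 in ADR1-L2 DV, beside 494 in Col-0. *EDS1*, the hub that reads TIR-made signals, had 1957 in *sadr1-26.6* against 5323 in ADR1-L2 DV (log2 ratio -1.44), *PAD4* 2799 in *sadr1-26.6* against 6802 in ADR1-L2 DV (log2 ratio -1.28) and *SAG101* 580.5 in *sadr1-26.6* against 1192 in ADR1-L2 DV (log2 ratio -1.04). All 11 ratios were below 0, with a median log2 ratio of -1.02. The RNL genes that were not called were *ADR1-L1* (log2 ratio -0.95), *NRG1.1* (log2 ratio -0.60) and *NRG1.2* (log2 ratio -0.73). Scaled to total reads, *ADR1-L1* was called too.

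Isochorismate synthase, encoded by *ICS1*, makes the precursor from which PBS3 builds salicylic acid, and CBP60g and SARD1 are the transcription factors that switch these genes on. *CBP60g* had 1786 scaled reads in *sadr1-26.6* and 7609.8 in ADR1-L2 DV (log2 ratio -2.09, interval -2.17 to -2.02), beside 1813 in Col-0. *SARD1* had 2148 in *sadr1-26.6* against 6235 in ADR1-L2 DV and *PBS3* 1226 in *sadr1-26.6* against 3246 in ADR1-L2 DV. *ICS1* itself was near the threshold, with 1843 in *sadr1-26.6* against 3719 in ADR1-L2 DV (log2 ratio -1.01). *FMO1*, the monooxygenase that makes N-hydroxypipecolic acid for systemic resistance, showed the widest gap of the lower members, 55.0 scaled reads in *sadr1-26.6* and 453 in ADR1-L2 DV (log2 ratio -3.02, interval -3.48 to -2.62), beside 24.8 in *sadr1-30.4* and 288 in Col-0. The hydroxylases that remove salicylic acid were lower too, *S3H* at 1033 in *sadr1-26.6* against 5200.3 in ADR1-L2 DV and *DMR6* at 5313 in *sadr1-26.6* against 15568 in ADR1-L2 DV. In all, 11 of the 25 counted biosynthesis, signaling and pipecolate genes were called lower, beside 7.88% of all genes, and 1 higher, with a median log2 ratio of -0.89. The higher one was *ICS2*, the minor isochorismate synthase, with 251 scaled reads in *sadr1-26.6* and 11.9 in ADR1-L2 DV (log2 ratio 4.29, interval 3.63 to 5.29), beside 197 in Col-0. *ALD1*, which makes the pipecolate precursor upstream of FMO1, had 584 in *sadr1-26.6* against 429 in ADR1-L2 DV and was not called.

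Of the 14 salicylic acid output genes, 12 were called lower, beside 7.88% of all genes, none higher, and the median log2 ratio was -1.44. *PR1*, the usual reporter of this pathway, had 6417 scaled reads in *sadr1-26.6* and 20480.2 in ADR1-L2 DV (3.19-fold lower, log2 ratio -1.67, interval -1.72 to -1.63), beside 2071 in *sadr1-30.4* and 11920.0 in Col-0. *PR2*, a beta-1,3-glucanase, had 8223 in *sadr1-26.6* against 37302 in ADR1-L2 DV, beside 16774 in Col-0. Both were thus below the Col-0 pool in *sadr1-26.6*. *PR5*, *GSTF6* and *GSTF7* were called lower although ADR1-L2 DV was near or below Col-0. *PR5* had 8680 in *sadr1-26.6* against 21049 in ADR1-L2 DV, beside 21971 in Col-0. *GSTF6* had 2213 in *sadr1-26.6* against 4581 in ADR1-L2 DV, beside 5813 in Col-0. *GSTF7* had 1716 in *sadr1-26.6* against 4567 in ADR1-L2 DV, beside 4259 in Col-0. The other called members were higher in ADR1-L2 DV than in Col-0. *SAG13*, a short-chain dehydrogenase, had 544 in *sadr1-26.6* against 5193 in ADR1-L2 DV (log2 ratio -3.25). *DOX1*, an alpha-dioxygenase that oxygenates fatty acids, was close to absent from *sadr1-26.6*, with 2 pooled reads, while ADR1-L2 DV had 2197 (log2 ratio -9.21, interval -12.80 to -7.90). It had 1 pooled read in *sadr1-30.4* and 1 in Col-0. The output genes not called were *TRX-h5*, with 1632 in *sadr1-26.6* against 3256 in ADR1-L2 DV just short of 2-fold, and *ACD6* (log2 ratio -0.27).

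Cell-surface immunity genes were lower in part. Of 33 counted pattern receptor signaling genes, 11 were called lower, beside 7.88% of all genes, and none higher (median log2 ratio -0.63). *RLP23*, the receptor for nlp20 peptides, had 2958 scaled reads in *sadr1-26.6* and 9278 in ADR1-L2 DV, and *SOBIR1*, its co-receptor kinase, 6629 in *sadr1-26.6* against 17814 in ADR1-L2 DV. *WRKY53*, a transcription factor of defense and senescence, had 216 in *sadr1-26.6* against 1248 in ADR1-L2 DV (log2 ratio -2.53, interval -2.75 to -2.32). The flagellin receptor gene *FLS2*, by contrast, had 519 in *sadr1-26.6* against 467 in ADR1-L2 DV (log2 ratio 0.15) and was not called. Cysteine-rich receptor-like kinases, a family induced by pathogens and salicylic acid, had 19 of 32 counted members called lower, beside the same 7.88%, and 2 higher (median log2 ratio -1.04). *CRK23* had 279.5 scaled reads in *sadr1-26.6* and 1654 in ADR1-L2 DV, and *CRK37* 414 in *sadr1-26.6* against 2056 in ADR1-L2 DV. *CRK21* went the other way, with 1546 in *sadr1-26.6* against 371 in ADR1-L2 DV, as did *CRK42* with 681 in *sadr1-26.6* against 280.4 in ADR1-L2 DV. Kinases of this family lie in tandem arrays of similar sequence, so reads may be split between neighbours.

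Few NLR genes passed the threshold. All 23 counted TNL and TIR genes had ratios below 0, with a median log2 ratio of -0.63, but 2 were called, a share near the 7.88% of all genes. These were *TN2*, a TIR-NBS gene, with 7.6 scaled reads in *sadr1-26.6* and 68.0 in ADR1-L2 DV, and *WRR4*, a receptor for white rust, with 1267 in *sadr1-26.6* against 3423 in ADR1-L2 DV. *SNC1*, known from autoimmune alleles, had 7306 in *sadr1-26.6* against 11657 in ADR1-L2 DV (log2 ratio -0.67), and *RPP1* had 3714 in *sadr1-26.6* against 6671 in ADR1-L2 DV (log2 ratio -0.84). Scaled to total reads, 9 of the 23 were called lower. Among coiled-coil NLR genes and their partners, 2 of 12 were called lower, *L5* and *RFL1*, beside 7.88% of all genes, and the median log2 ratio was -0.44.

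Calcium genes are of interest because RNLs conduct calcium. Of 37 counted, 15 were called lower, beside 7.88% of all genes, and 1 higher (median log2 ratio -0.89). *CAX3*, a vacuolar calcium/proton exchanger, had 967 scaled reads in *sadr1-26.6* and 6250.4 in ADR1-L2 DV (log2 ratio -2.69, interval -2.79 to -2.59), beside 772 in Col-0. *ACA12*, a plasma membrane calcium pump, had 121 in *sadr1-26.6* against 833 in ADR1-L2 DV, and *CML41*, a calmodulin-like protein of plasmodesmata, 362 in *sadr1-26.6* against 1862 in ADR1-L2 DV. *CML41* in *sadr1-26.6* was above its 74.8 scaled reads in Col-0. The pump gene *ACA8* was the higher one, with 1448 in *sadr1-26.6* against 682 in ADR1-L2 DV (log2 ratio 1.08), a call lost when reads were scaled to total reads. The channel genes *CNGC2* (log2 ratio 0.94) and *CNGC4* (log2 ratio 0.84) had positive ratios and were not called.

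**Figure D2:**
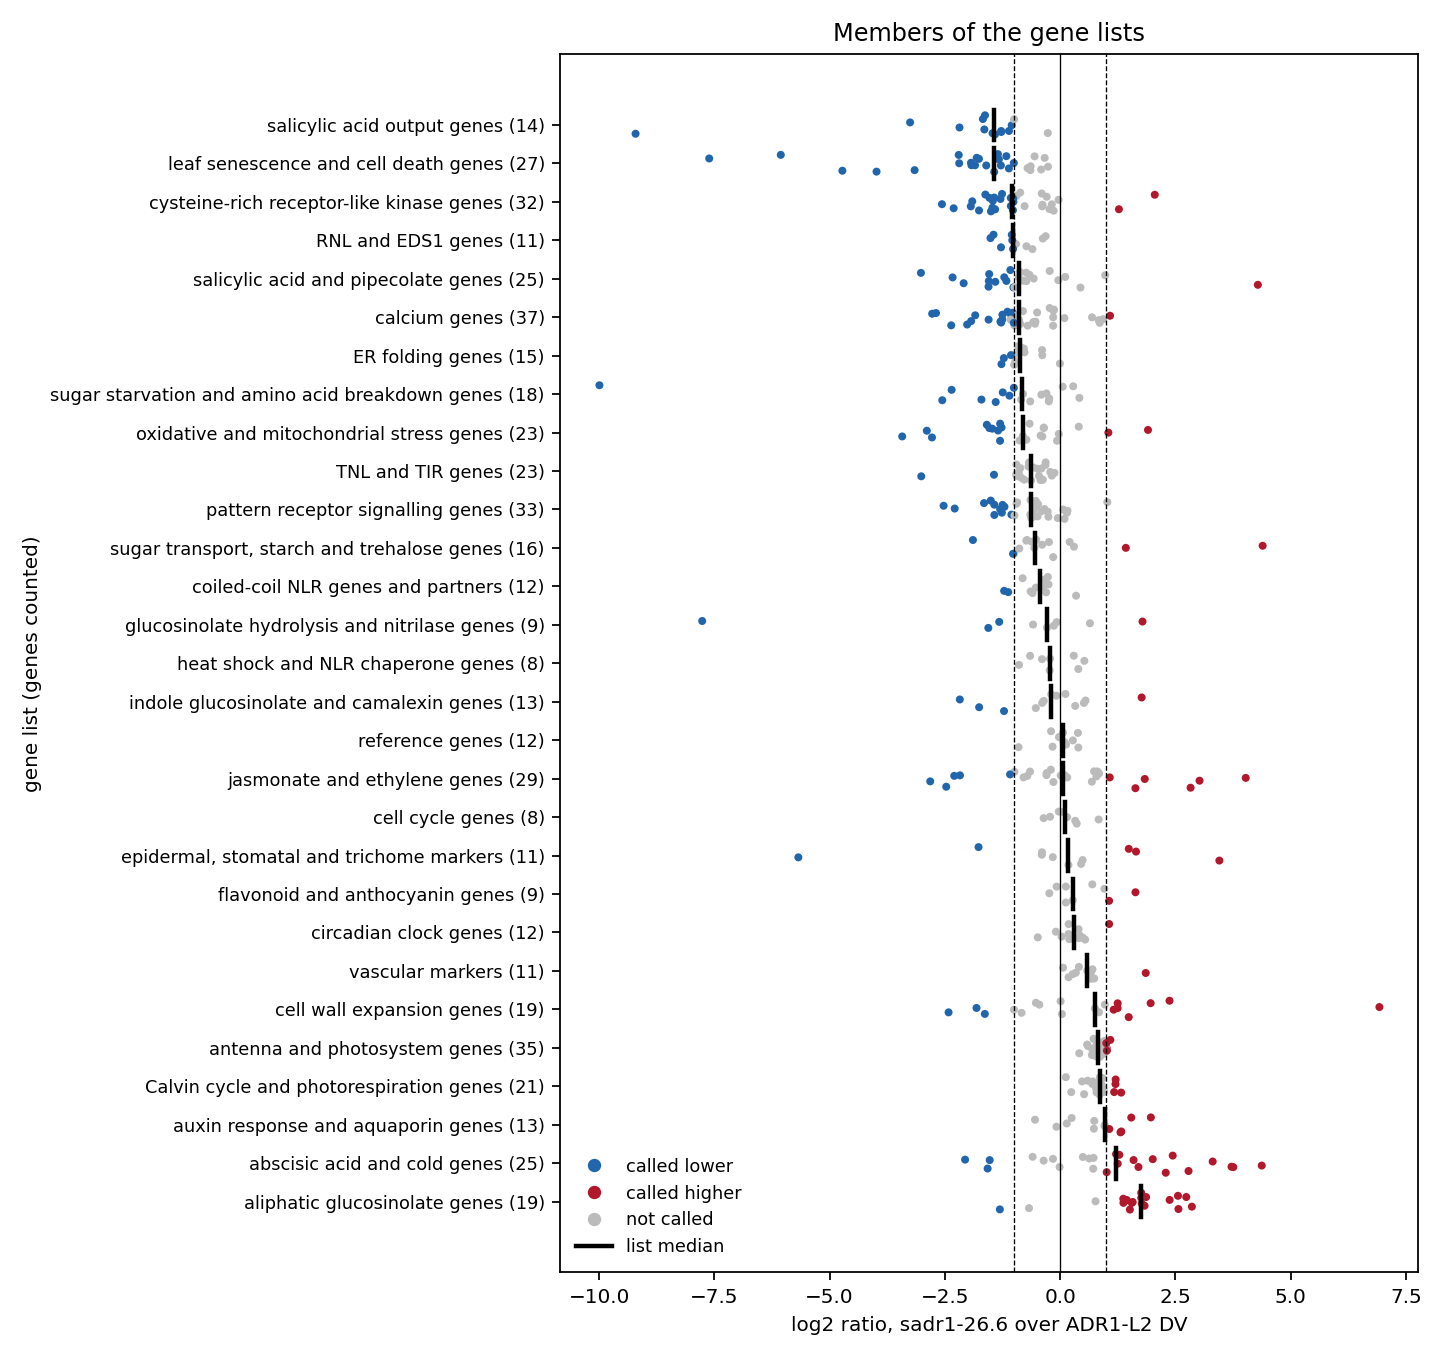
Log2 ratio of *sadr1-26.6* over ADR1-L2 DV (horizontal axis) for every counted member of 29 gene lists (rows, with the number counted), each point a gene coloured by its call and each bar the list median, with dashed lines at 2-fold; root and floral markers are not drawn. Salicylic acid output and senescence lists have the lowest medians, and the abscisic acid and cold list and the aliphatic glucosinolate list the highest.

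Because WRKY transcription factors bind the W-box, whose core is TTGAC, the 250 bases before each annotated gene start in the RefSeq annotation of TAIR10.1 were searched for it on both strands. It occurred at least once in 57.9% of the genes called lower, in 39.0% of those called higher and in 44.9% of all genes counted with such a window, and at least 2 times in 24.7% of the lower, 11.0% of the higher and 14.5% of all genes. Among the 15 lower genes that lead the ranking it was found in 9, and among the 15 higher ones in 4. These are matches of letters and carry no test. The windows of *SARD1* and *WRKY53*, both on the minus strand of their chromosomes and both called lower, are printed to show where these letters stand. They run 5′ to 3′ in the direction of transcription, with TTGAC in either orientation in capitals. *SARD1* holds 4 matches, of which a pair stand end to end, and *WRKY53* holds 2. Read in the TTGAC direction, the next base is A or G in *SARD1* and C in *WRKY53*. The search did not ask for that base, so a match need not be a full W-box.
*SARD1*, chr1:27749249-27749498, minus strand: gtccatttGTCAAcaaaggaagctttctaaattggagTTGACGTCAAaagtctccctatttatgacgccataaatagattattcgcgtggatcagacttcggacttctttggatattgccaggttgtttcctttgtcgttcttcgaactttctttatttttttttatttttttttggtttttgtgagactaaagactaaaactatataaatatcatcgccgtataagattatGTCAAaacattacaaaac
*WRKY53*, chr4:12393983-12394232, minus strand: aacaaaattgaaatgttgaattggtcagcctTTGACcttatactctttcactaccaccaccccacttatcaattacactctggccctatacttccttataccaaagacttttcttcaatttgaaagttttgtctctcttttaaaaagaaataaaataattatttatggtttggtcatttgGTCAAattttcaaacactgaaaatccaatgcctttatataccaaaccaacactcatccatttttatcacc

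Senescence dismantles the leaf under the control of NAC and WRKY transcription factors, and its late marker SAG12 is a cysteine protease. Of 27 counted genes of leaf senescence and cell death, 20 were called lower, beside 7.88% of all genes, and none higher, with a median log2 ratio of -1.43 that was the same with *SAG12* set at its floor. *SAG12* had no read in *sadr1-26.6* and 195 scaled reads in ADR1-L2 DV, at least 60.1-fold lower taking 3 pooled reads as the limit that a count of 0 allows. It also had no read in *sadr1-30.4* or Col-0. *SAG29*, a SWEET sugar transporter, had 3 pooled reads in *sadr1-26.6* and 331 in ADR1-L2 DV (log2 ratio -6.06, interval -8.73 to -4.88). Of the regulators, *NAC055* had 6.5 scaled reads in *sadr1-26.6* against 196 in ADR1-L2 DV (log2 ratio -4.72) and *WRKY75* 10.8 in *sadr1-26.6* against 185 in ADR1-L2 DV (log2 ratio -3.98). *BFN1*, a nuclease of dying cells, had 16.2 in *sadr1-26.6* against 152 in ADR1-L2 DV. *ORS1*, another senescence NAC gene, was called lower, 71.2 in *sadr1-26.6* against 180.1 in ADR1-L2 DV, and was above its 6.2 scaled reads in Col-0. The chlorophyll breakdown genes divided, with *NYE1* (log2 ratio -1.17) and *NYE2* (log2 ratio -2.19) called and *PAO* (log2 ratio -0.33), *PPH* (log2 ratio -0.55) and *NYC1* (log2 ratio -0.64) not.

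The same direction held for genes of carbon starvation and amino acid breakdown, with 8 of 18 called lower, beside 7.88% of all genes, none higher and a median log2 ratio of -0.82. *DIN2*, a beta-glucosidase induced by darkness, had the lowest ratio of all named genes, 1 pooled read in *sadr1-26.6* against 2491 in ADR1-L2 DV (log2 ratio -9.99, interval -16.24 to -8.46), beside 2 in *sadr1-30.4* and 1 in Col-0. *LKR*, the first enzyme of lysine breakdown, had 387 scaled reads in *sadr1-26.6* and 2281 in ADR1-L2 DV. Its level in *sadr1-26.6* was above the 68.2 of *sadr1-30.4* and the 72.7 of Col-0. *PRODH1*, proline dehydrogenase, had 180.2 in *sadr1-26.6* against 924 in ADR1-L2 DV, beside 183 in Col-0. *DIN10* (log2 ratio -0.41) and *DIN11* (log2 ratio -0.23), from the same group of dark-induced genes, were not called, and *DIN10* had 1024 scaled reads in *sadr1-26.6* beside 358 in Col-0.

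Oxidative and mitochondrial stress genes had 10 of 23 called lower, beside 7.88% of all genes, and 2 higher (median log2 ratio -0.81). *AOX1D*, an alternative oxidase, had 32.4 scaled reads in *sadr1-26.6* and 246 in ADR1-L2 DV, and *GSTU11*, a glutathione transferase, 4.3 in *sadr1-26.6* against 56.1 in ADR1-L2 DV. The higher genes were enzymes of green tissue: *FSD1*, the iron superoxide dismutase of chloroplasts, with 15442 in *sadr1-26.6* against 4114 in ADR1-L2 DV (log2 ratio 1.91), and *CAT2*, the catalase of photorespiration, with 51121 in *sadr1-26.6* against 24718 in ADR1-L2 DV (log2 ratio 1.05). The call of *CAT2* was lost with total-read scaling. The copper/zinc dismutases *CSD1* (log2 ratio -1.27) and *CSD2* (log2 ratio -1.30) were called lower. *CSD1* had 1367 scaled reads in *sadr1-26.6* against 3296 in ADR1-L2 DV, beside 1954 in *sadr1-30.4* and 2610 in Col-0. *CSD2* had 1443 in *sadr1-26.6* against 3556 in ADR1-L2 DV, beside 4077 in *sadr1-30.4* and 4638 in Col-0. For *CSD2*, ADR1-L2 DV was thus not above Col-0, and *sadr1-26.6* was the lowest genotype. Of 15 genes for protein folding in the endoplasmic reticulum, all had ratios below 0, with a median log2 ratio of -0.87. Of these, 3 were called lower, beside 7.88% of all genes. Among them was *CRT3*, a calreticulin, with 5134 in *sadr1-26.6* against 11952 in ADR1-L2 DV, beside 6410 in Col-0. Many of the 15 lay just short of the threshold, and 12 were called when scaled to total reads. Summed over the 15, scaled reads were 48030 in *sadr1-26.6* and 92020 in ADR1-L2 DV, beside 45870 in *sadr1-30.4* and 87610 in Col-0. In sum, ADR1-L2 DV was thus near Col-0, and both suppressed lines were below Col-0. *HSP90.7* had 10267 scaled reads in *sadr1-26.6* against 21462 in ADR1-L2 DV, beside 10536 in *sadr1-30.4* and 19272 in Col-0. Among 8 heat shock and NLR chaperone genes none was called, beside 14.7% of all genes in either direction. The lowest was *SGT1A* (log2 ratio -0.89), a co-chaperone of NLRs.

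The 15 lower genes that led the ranking by counting interval included, beyond those above, a nitrilase, a protease inhibitor and secreted or lipid-linked proteins. *NIT2*, which converts indole acetonitrile to auxin, had 18.3 scaled reads in *sadr1-26.6* and 4201 in ADR1-L2 DV, 217-fold lower (log2 ratio -7.76, interval -8.62 to -7.16), beside 10.3 in *sadr1-30.4* and 20.8 in Col-0. Nitrilase genes lie next to each other and are alike in sequence, so its reads may be shared. *KTI1*, a Kunitz trypsin inhibitor, had 4.3 in *sadr1-26.6* against 1348 in ADR1-L2 DV. *OSM34*, an osmotin-like protein, had no read in *sadr1-26.6* and 393 scaled reads in ADR1-L2 DV, at least 122-fold lower. The glyoxalase I genes *GLYI4* (15.1 in *sadr1-26.6* against 405 in ADR1-L2 DV) and *GLYI7* (8.6 in *sadr1-26.6* against 291 in ADR1-L2 DV), whose family detoxifies methylglyoxal, were both in this set. So were *AMY1*, a secreted alpha-amylase (51.8 in *sadr1-26.6* against 1223 in ADR1-L2 DV), *LTL1*, a GDSL-type lipase (11.9 in *sadr1-26.6* against 508 in ADR1-L2 DV), and *CCOAMT*, a methyltransferase (21.6 in *sadr1-26.6* against 750.2 in ADR1-L2 DV). AT5G45670, AT2G44240 and AT4G16260, which the table of gene names leaves without a symbol, and *PDF1*, described with the epidermal markers, complete the 15. AT2G44240 had 58.3 in *sadr1-26.6* against 1538 in ADR1-L2 DV, beside 5.2 in *sadr1-30.4* and 123 in Col-0.

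**Figure D3:**
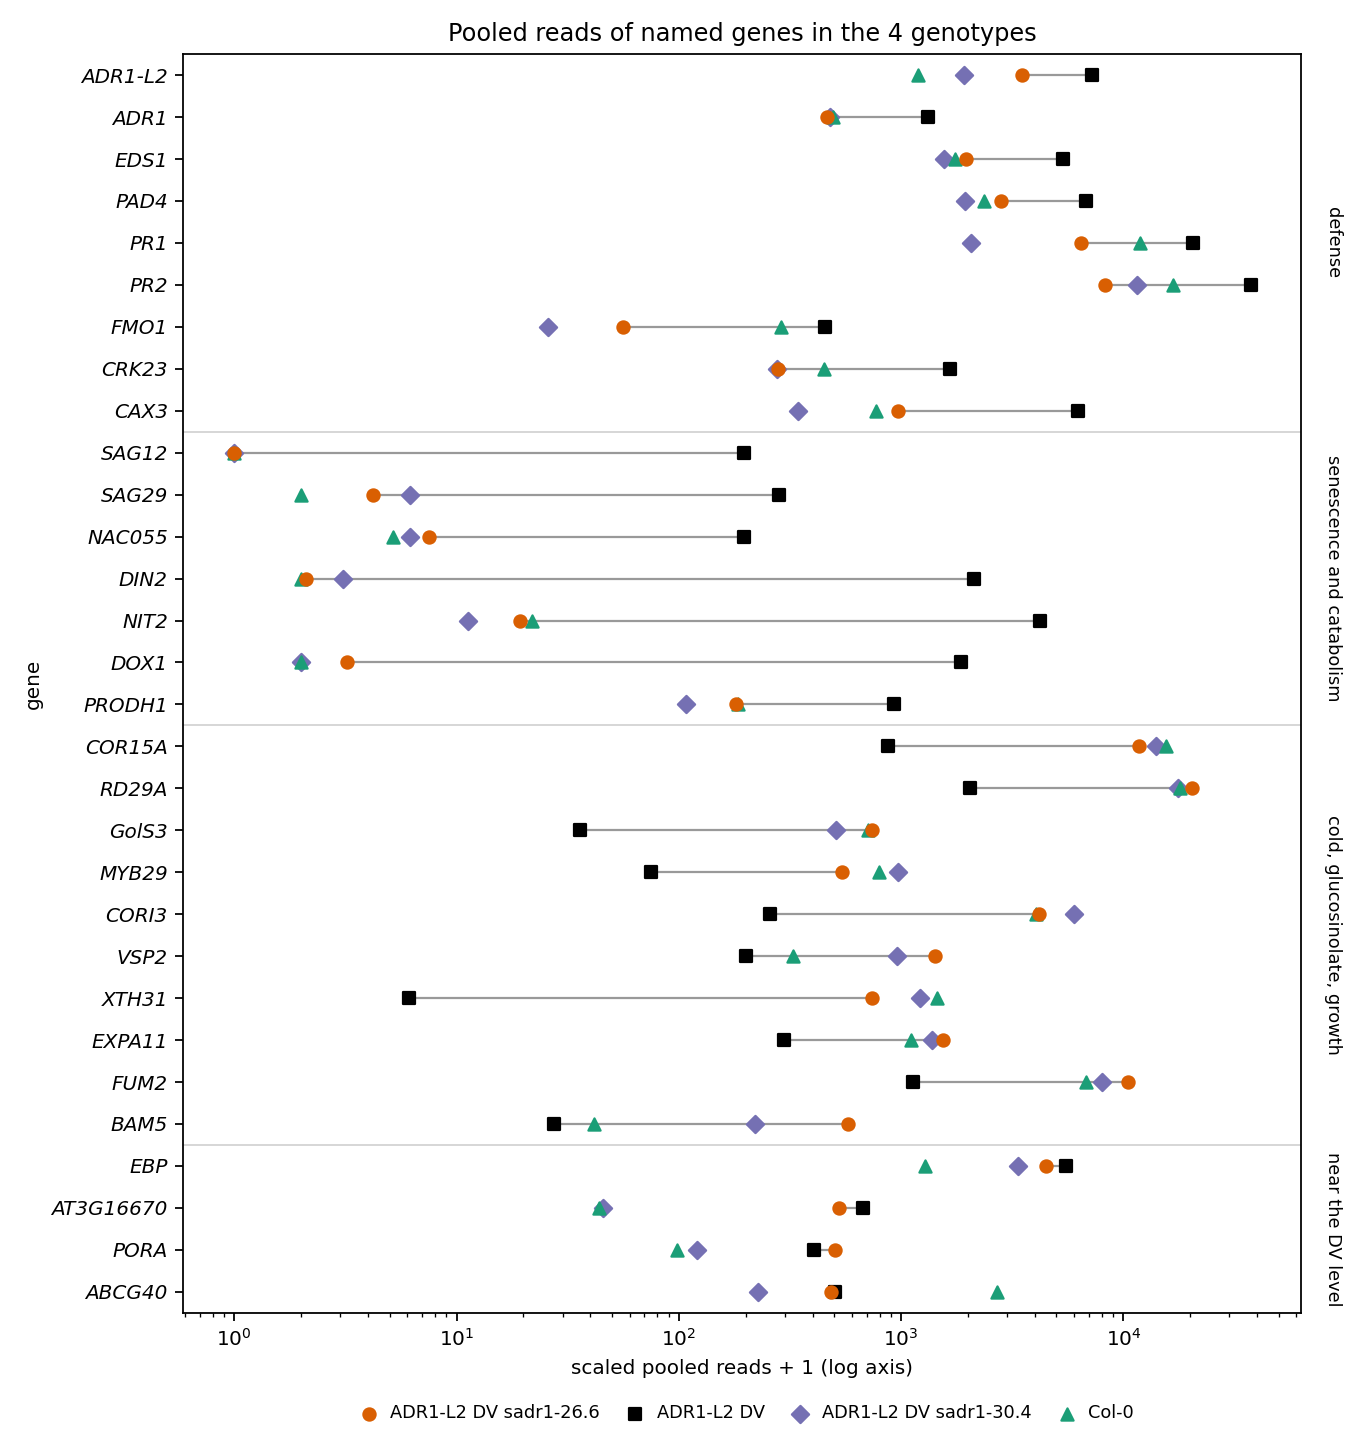
Scaled pooled reads plus 1 (log axis) of some named genes in the 4 genotypes, 1 pooled value each without an error bar. A grey line joins *sadr1-26.6* (circles) and ADR1-L2 DV (squares), and *sadr1-30.4* and Col-0 are drawn as diamonds and triangles. The bottom 4 genes were chosen as lying near the ADR1-L2 DV level and have circles beside squares. The genes above them were picked from called genes with their values known, so the side of each circle follows from the choice. Circles lie left of squares for the genes drawn under defense and under senescence and catabolism. They lie right of squares in the group labelled cold, glucosinolate and growth, which also holds *CORI3*, *VSP2*, *FUM2* and *BAM5*. Called members of the same lists with the opposite direction, such as *ICS2*, *CRK21*, *HAI1* and *XTH22*, are not drawn.

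Cold- and abscisic acid-responsive genes supplied several of the highest ratios. Many encode hydrophilic proteins that protect membranes and enzymes during freezing and drying, and they are switched on by CBF/DREB1 transcription factors through the CRT/DRE element. Of 25 counted genes, 14 were called higher, beside 6.78% of all genes counted, and 3 lower (median log2 ratio 1.22), and 11 were called higher when scaled to total reads. *COR15A* had 11783 scaled reads in *sadr1-26.6* and 869 in ADR1-L2 DV, 13.5-fold higher (log2 ratio 3.76, interval 3.67 to 3.85), beside 14005 in *sadr1-30.4* and 15502 in Col-0. *RD29A* had 20255 in *sadr1-26.6* against 2039.9 in ADR1-L2 DV (log2 ratio 3.31, interval 3.25 to 3.37), beside 17900.2 in Col-0. *GolS3*, a galactinol synthase for raffinose sugars, had 742 in *sadr1-26.6* against 34.8 in ADR1-L2 DV (log2 ratio 4.38), and *KIN1* 359 in *sadr1-26.6* against 26.3 in ADR1-L2 DV (log2 ratio 3.72). The regulator *DREB1A* was itself higher, with 342 in *sadr1-26.6* against 84.1 in ADR1-L2 DV (log2 ratio 2.01). *CBF2* was at the threshold (log2 ratio 1.01), and *CBF1*, with 44.2 in *sadr1-26.6* against 26.3 in ADR1-L2 DV, was not called. The lower members belonged to the abscisic acid signaling core: *HAI1*, a protein phosphatase, with 129.5 in *sadr1-26.6* against 387 in ADR1-L2 DV, and the receptors *PYL5* (29.1 in *sadr1-26.6* against 85.8 in ADR1-L2 DV) and *PYL6* (11.9 in *sadr1-26.6* against 52.7 in ADR1-L2 DV).

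The CRT/DRE core, CCGAC on either strand, was searched in the same 250-base windows, a motif added after the values had been seen. It occurred in 13.7% of the genes called higher, in 9.29% of those called lower and in 13.1% of all genes counted. Over all higher genes its share was thus near that of all genes, while 7 of the 15 leading higher genes held it and none of the 15 leading lower genes did. The ABRE-like core ACGTG, which also lies inside the G-box CACGTG, occurred in 29.5% of higher, 31.8% of lower and 23.5% of all genes. The G-box itself occurred in 9.14% of higher, 7.80% of lower and 7.48% of all genes. The evening element AAAATATCT occurred in 4.12% of higher, 2.06% of lower and 2.59% of all genes. The windows of *COR15A*, *GolS3* and *RD29A*, genes with some of the highest ratios, are printed with CCGAC in either orientation in capitals, 2 in *COR15A*, 2 in *GolS3* and 3 in *RD29A*.
*COR15A*, chr2:17712331-17712580, minus strand: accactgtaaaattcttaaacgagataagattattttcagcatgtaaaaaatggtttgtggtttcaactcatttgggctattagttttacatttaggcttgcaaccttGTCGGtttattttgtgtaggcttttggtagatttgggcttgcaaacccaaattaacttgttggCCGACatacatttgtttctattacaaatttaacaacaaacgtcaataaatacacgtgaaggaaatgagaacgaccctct
*GolS3*, chr1:3019389-3019638, plus strand: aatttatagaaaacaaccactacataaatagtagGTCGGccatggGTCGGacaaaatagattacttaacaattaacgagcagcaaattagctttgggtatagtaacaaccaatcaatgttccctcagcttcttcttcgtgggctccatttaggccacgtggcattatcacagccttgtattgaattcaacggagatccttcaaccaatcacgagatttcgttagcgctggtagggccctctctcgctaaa
*RD29A*, chr5:21240467-21240716, plus strand: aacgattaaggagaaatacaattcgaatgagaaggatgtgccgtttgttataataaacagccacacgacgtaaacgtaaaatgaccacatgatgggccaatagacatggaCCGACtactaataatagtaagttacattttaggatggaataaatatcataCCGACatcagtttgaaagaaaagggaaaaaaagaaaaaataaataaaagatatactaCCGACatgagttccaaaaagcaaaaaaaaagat

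**Figure D4:**
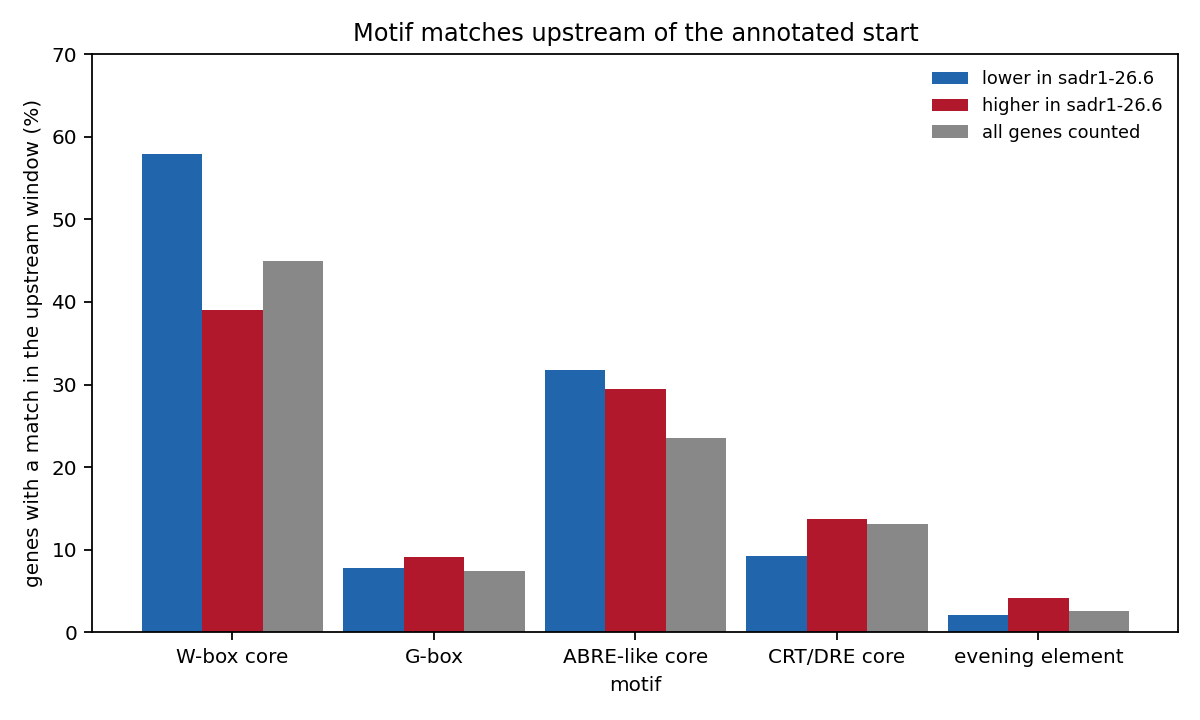
Share of genes (vertical axis, percent, from 0) with at least 1 match to each of 5 motifs in the 250 bases before the annotated start, for genes called lower in *sadr1-26.6* (blue), called higher (red) and all genes counted (grey). The W-box core stood at 57.9% of lower, 39.0% of higher and 44.9% of all genes, a wider gap in percentage points than for the other motifs drawn. As a ratio, the evening element differed more, at 2.06% of lower and 4.12% of higher genes.

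Aliphatic glucosinolates, the methionine-derived mustard oil precursors of Arabidopsis, held more higher calls than any of the other lists. Of 19 biosynthesis genes, 16 were called higher, beside 6.78% of all genes, and 1 lower, with a median log2 ratio of 1.76, and the same counts held with total-read scaling. Each step was represented. Of the MYB regulators, *MYB29* had 543 scaled reads in *sadr1-26.6* and 73.9 in ADR1-L2 DV (7.26-fold higher, log2 ratio 2.86, interval 2.54 to 3.22), beside 969 in *sadr1-30.4* and 798 in Col-0, and *MYB28* had 1347 in *sadr1-26.6* against 471 in ADR1-L2 DV. In chain elongation, *MAM1* had 5051 in *sadr1-26.6* against 1850.4 in ADR1-L2 DV and *BCAT4* 2617 in *sadr1-26.6* against 1008 in ADR1-L2 DV. In core synthesis, the cytochrome P450 genes *CYP79F1* (4395 in *sadr1-26.6* against 1473 in ADR1-L2 DV) and *CYP83A1* (7956 in *sadr1-26.6* against 2180.0 in ADR1-L2 DV) were higher. In side chain oxidation, *FMO-GS-OX3* had 1168 in *sadr1-26.6* against 174 in ADR1-L2 DV, and *FMO-GS-OX1* 847 in *sadr1-26.6* against 162 in ADR1-L2 DV. The exceptions were *MAM3*, the long-chain elongation enzyme, called lower with 56.1 in *sadr1-26.6* against 140.2 in ADR1-L2 DV, and *CYP79F2* (log2 ratio -0.67) and *SOT17* (log2 ratio 0.77), which were not called. *CYP79F1* and *CYP79F2* are near-identical neighbours whose reads may be exchanged.

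Indole glucosinolate and camalexin genes did not share that direction, with a median log2 ratio of -0.19. Of 13 counted, 3 were called lower and 1 higher, beside 7.88% and 6.78% of all genes. *MYB34*, a regulator of indole glucosinolates, was higher at 446 scaled reads in *sadr1-26.6* against 130.0 in ADR1-L2 DV. *MYB51*, a regulator of the same branch known for its defense response, was lower at 434 in *sadr1-26.6* against 1008 in ADR1-L2 DV, as was *CYP71A12* of the camalexin branch at 36.7 in *sadr1-26.6* against 169 in ADR1-L2 DV. Of the 9 genes for glucosinolate hydrolysis and nitrilases, 3 were called lower and 1 higher, beside the same 7.88% and 6.78%. The higher one, *ESP*, turns hydrolysis toward epithionitriles and had 1059.6 in *sadr1-26.6* against 306 in ADR1-L2 DV, beside 594 in Col-0.

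Jasmonate and ethylene genes divided, with 6 of 29 called higher and 5 lower, beside 6.78% and 7.88% of all genes. Their median log2 ratio of 0.07 turned to -0.18 when scaled to total reads. *CORI3*, a cystine lyase induced by coronatine, had 4188 scaled reads in *sadr1-26.6* and 256 in ADR1-L2 DV (16.3-fold higher, log2 ratio 4.03, interval 3.86 to 4.21), beside 4028 in Col-0. *VSP2*, a vegetative storage protein and jasmonate marker, had 1422 in *sadr1-26.6* against 199 in ADR1-L2 DV (log2 ratio 2.83), beside 956 in *sadr1-30.4* and 326 in Col-0, so that *sadr1-26.6* was the highest of the 4 genotypes. *AOS*, allene oxide synthase of jasmonate synthesis, had 7093 in *sadr1-26.6* against 2284 in ADR1-L2 DV, and *JMT*, which methylates jasmonate, 97.1 in *sadr1-26.6* against 11.0 in ADR1-L2 DV. On the lower side stood *ACS2*, an ethylene synthesis gene, with 22.7 in *sadr1-26.6* against 130.0 in ADR1-L2 DV, *ORA59*, a regulator shared by jasmonate and ethylene, with 2 pooled reads in *sadr1-26.6* against 25 in ADR1-L2 DV (interval -6.42 to -1.29 for the log2 ratio), and the jasmonate-inactivating *CYP94B3* with 6.5 in *sadr1-26.6* against 35.7 in ADR1-L2 DV. The receptor gene *COI1* had 1004 in *sadr1-26.6* against 994 in ADR1-L2 DV.

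Photosynthesis genes had ratios above 0 that were mostly short of 2-fold. All 35 antenna and photosystem genes had ratios above 0, with a median log2 ratio of 0.81, and 4 were called higher, not far from the 6.78% of all genes. *LHCB1.3*, a light-harvesting protein and the most read of them, had 758839 scaled reads in *sadr1-26.6* and 470167 in ADR1-L2 DV (log2 ratio 0.69, interval 0.69 to 0.70), beside 688089.5 in Col-0. *DRT112*, a plastocyanin, had 71070.0 in *sadr1-26.6* against 33356 in ADR1-L2 DV (log2 ratio 1.09). Of 21 Calvin cycle and photorespiration genes, 4 were called higher, beside the same 6.78%, with a median log2 ratio of 0.86. *RBCS1B*, a Rubisco small subunit, had 46215 in *sadr1-26.6* against 20079 in ADR1-L2 DV, and *FBA1*, a plastid aldolase, 53775 in *sadr1-26.6* against 21452 in ADR1-L2 DV (log2 ratio 1.33). None of the 35 and 1 of the 21, *FBA1*, were called when scaled to total reads, where all 35 and 19 of 21 ratios were still above 0. Light-harvesting and Rubisco small subunit genes belong to families of near-identical copies, between which reads may be divided.

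Of 16 sugar and starch genes, 2 were called lower and 2 higher, beside 7.88% and 6.78% of all genes. The median log2 ratio was -0.54, with 12 of the 16 ratios below 0. With total-read scaling, 4 were called lower and 2 higher. *BAM5*, a beta-amylase outside the chloroplast, had 574 scaled reads in *sadr1-26.6* and 26.3 in ADR1-L2 DV (21-fold higher, log2 ratio 4.39, interval 3.92 to 5.02). This was above both other genotypes, 220.0 in *sadr1-30.4* and 40.5 in Col-0. *TPS5* and *TPS9*, class II trehalose phosphate synthase-like genes, parted, with *TPS5* at 1197 in *sadr1-26.6* against 444 in ADR1-L2 DV and *TPS9* at 92.8 in *sadr1-26.6* against 347 in ADR1-L2 DV. *FUM2*, the cytosolic fumarase that lets leaves store fumarate, was among the leading higher genes, with 10497 in *sadr1-26.6* against 1134 in ADR1-L2 DV (log2 ratio 3.21, interval 3.13 to 3.29), beside 6781 in Col-0.

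Of 19 cell wall expansion genes, 7 were called higher and 3 lower, beside 6.78% and 7.88% of all genes (median log2 ratio 0.76). Scaled to total reads, 4 were called higher and 5 lower, so the balance of this list depended on the scaling. *XTH31*, a xyloglucan-modifying enzyme, had the highest ratio of the named genes with reads in both genotypes, 741 scaled reads in *sadr1-26.6* and 5.1 in ADR1-L2 DV (122-fold, log2 ratio 6.93, interval 6.05 to 8.63), beside 1212 in *sadr1-30.4* and 1443 in Col-0. The expansin gene *EXPA11* had 1538 in *sadr1-26.6* against 296 in ADR1-L2 DV and *EXPA4* 355 in *sadr1-26.6* against 126 in ADR1-L2 DV. The lower members were *XTH16* (31.3 in *sadr1-26.6* against 172 in ADR1-L2 DV), *XTH22* (125 in *sadr1-26.6* against 390.0 in ADR1-L2 DV) and *XTH23* (11.9 in *sadr1-26.6* against 44.2 in ADR1-L2 DV), of which *XTH22* is known for its response to touch. Of 13 auxin response and aquaporin genes, 5 were called higher, beside 6.78% of all genes, 3 with total-read scaling, and none lower. *IAA3*, an auxin co-receptor repressor, had 1142 in *sadr1-26.6* against 291 in ADR1-L2 DV, and *PIP2;1*, a plasma membrane aquaporin, 22004 in *sadr1-26.6* against 7543 in ADR1-L2 DV. *TBL26*, of a family that acetylates wall polysaccharides, had 2604 in *sadr1-26.6* against 231 in ADR1-L2 DV, above its 1628 scaled reads in Col-0. The 15 leading higher genes also held 5 without a symbol, AT2G27420, AT5G44050, AT3G27250, AT1G16850 and AT5G05960, with log2 ratios of 3.50, 3.77, 3.67, 3.59 and 3.50.

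Cell cycle genes were not called in either direction (0 of 8), beside 14.7% of all genes. Of 12 clock genes 1 was called higher, beside 6.78% of all genes. This was *ELF4*, with 122 scaled reads in *sadr1-26.6* against 57.8 in ADR1-L2 DV, and that call was lost with total-read scaling. The morning genes *CCA1* (log2 ratio 0.41) and *LHY* (log2 ratio 0.19) and the evening gene *TOC1* (log2 ratio -0.48) were within 2-fold. Of 12 reference genes none was called, beside 14.7% of all genes in either direction. Their median log2 ratio of 0.07 became -0.19 with total-read scaling. *UBQ10*, often used to normalise, was the farthest from equality, with 43057 in *sadr1-26.6* against 80376 in ADR1-L2 DV (log2 ratio -0.90). Among flavonoid genes, with a list median log2 ratio of 0.28 (-0.05 with total-read scaling), 2 of 9 were called higher, beside 6.78% of all genes. One was the anthocyanin regulator *PAP1*, with 150.0 in *sadr1-26.6* against 47.6 in ADR1-L2 DV, beside 74.8 in Col-0.

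Markers of cell types were read for the makeup of the leaves, in which fewer cells of a type and less RNA per cell cannot be told apart. Of 6 root and floral markers, 5 fell below the filter on reads, and the floral regulator *AG* was called higher with 30 pooled reads in *sadr1-26.6* and 1 in ADR1-L2 DV (log2 ratio 4.17, interval 2.66 to 10.60). All 11 vascular markers had ratios above 0, 9 of 11 when scaled to total reads, with a median log2 ratio of 0.59. Their summed scaled reads were 12340 in *sadr1-26.6* and 7050 in ADR1-L2 DV, and 1 was called higher, a share near that of all genes, the sulfate transporter *SULTR2;1* with 2203 in *sadr1-26.6* against 607 in ADR1-L2 DV. The phloem loader *SUC2* had 5623 in *sadr1-26.6* against 3453 in ADR1-L2 DV (log2 ratio 0.70). Epidermal, stomatal and trichome markers were mixed, 3 of 11 called higher and 2 lower, beside 6.78% and 7.88% of all genes. *GIS*, a trichome regulator, had 224 in *sadr1-26.6* against 19.5 in ADR1-L2 DV (log2 ratio 3.46), and *CER1*, of wax alkane synthesis, 2047 in *sadr1-26.6* against 652 in ADR1-L2 DV. *PDF1*, expressed in the outer layer of young organs, went far the other way, with 5.4 in *sadr1-26.6* against 326 in ADR1-L2 DV (log2 ratio -5.68, interval -7.55 to -4.68), as did *TMM*, a stomatal lineage receptor, with 23.7 in *sadr1-26.6* against 83.3 in ADR1-L2 DV. The guard cell gene *MYB60* had 137 in *sadr1-26.6* against 121 in ADR1-L2 DV. The part of cell makeup in the gene groups above was not tested.

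A floor on reads kept genes whose scaled reads reached the median of genes with any read in the higher genotype. Above it, 147 genes were at least 4-fold higher in ADR1-L2 DV than in Col-0. Of these 147, 7 were within 0.5 (log2) of ADR1-L2 DV in *sadr1-26.6*. Both ratios use the same ADR1-L2 DV pool, so the values are given side by side and nothing is drawn from the count. *EBP*, an ethylene response factor, had 4461 scaled reads in *sadr1-26.6* and 5516 in ADR1-L2 DV, beside 3343 in *sadr1-30.4* and 1279 in Col-0. *PORA*, a protochlorophyllide reductase of greening, had 504 in *sadr1-26.6* against 406 in ADR1-L2 DV, beside 119.8 in *sadr1-30.4* and 97.6 in Col-0. AT3G16670 had 526 in *sadr1-26.6* against 672 in ADR1-L2 DV, and here the suppressed lines parted, since *sadr1-30.4* had 44.4 and Col-0 42.6. The other members were AT2G05540, AT5G15948, AT2G46200, which overlaps its neighbour, and AT1G07920, one of several near-identical elongation factor genes. In the opposite direction 85 genes were at least 4-fold lower in ADR1-L2 DV than in Col-0, and 1 of them met the same rule. This was *ABCG40*, a transporter of abscisic acid, with 480.2 scaled reads in *sadr1-26.6* and 502 in ADR1-L2 DV, beside 226 in *sadr1-30.4* and 2690.4 in Col-0.

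A second small set was lower in *sadr1-26.6* although ADR1-L2 DV was near Col-0. With the same floor on reads, 130 called genes were at least 4-fold lower in *sadr1-26.6* than in ADR1-L2 DV. Of these 130, 2 had ADR1-L2 DV within 1.5-fold of Col-0. *UGT73B2*, a glucosyltransferase, had 148 scaled reads in *sadr1-26.6* and 629.5 in ADR1-L2 DV, beside 212 in *sadr1-30.4* and 494 in Col-0. AT4G01870 had 158 in *sadr1-26.6* against 639 in ADR1-L2 DV, beside 139 in *sadr1-30.4* and 477 in Col-0. Both were low in each suppressed line. Of the 84 called genes above that floor that were at least 4-fold higher, none met the rule. Without the floor 14 lower and 8 higher genes met it.

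Some transcripts had reads in ADR1-L2 DV and none in *sadr1-26.6*, or the reverse. In 22 genes *sadr1-26.6* had no read and ADR1-L2 DV at least 30, and 15 of these had no read in *sadr1-30.4* and Col-0 either. Besides *OSM34* and *SAG12*, the 22 included *NRT1.8*, a nitrate transporter, with 112 scaled reads in ADR1-L2 DV, *MAN1*, an endo-beta-mannanase, with 78.2, *AO4*, an aldehyde oxidase, with 65.4, *PGAZAT*, a polygalacturonase of organ shedding, with 62.0, and *UMAMIT25*, of an amino acid exporter family, with 58.6. These folds were at least 34.6, 24.1, 20.2, 19.2 and 18.1 at the floor of 3 pooled reads. *MAN1* overlaps a neighbour on the other strand. The reverse, no read in ADR1-L2 DV and at least 30 in *sadr1-26.6*, was found in 6 genes. *NUDT24*, a Nudix hydrolase, had 33.4 scaled reads in *sadr1-26.6*, at least 13.1-fold higher, beside 63.0 in *sadr1-30.4* and 44.7 in Col-0. AT1G48750, which overlaps a neighbour on the other strand, had 76.6 in *sadr1-26.6*, beside 160.1 in *sadr1-30.4* and 116 in Col-0. The others were AT5G28370, AT1G29951, AT1G58684 and AT1G58983.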

How the data were processed

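Leaf mRNA of 12 samples, 3 per genotype by title, was sequenced (Qiagen RNeasy, Kapa HyperPrep). The authors deposited 1 table of read counts per gene, 1 whole-number column per genotype, pooled over samples. The columns are headed RPKM, but their products with gene length in kilobases summed to between 55751902 and 62665022 and they tracked gene length, so they were taken as counts. The submitters' notes name TAIR10; for aligner and counter the sources used here give no name. Gene names (28009 AGI codes matched) and upstream sequence came from RefSeq TAIR10.1. The 6 columns of the authors' own comparisons with Col-0 (log2 fold changes and FDR values) were not used.

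Size factors were medians of ratios over the 4 genotypes (0.927 for *sadr1-26.6*, 1.18 for ADR1-L2 DV). The log2 ratio used a pseudocount of 1, the filter was a mean of at least 10 scaled reads, and calls needed 2-fold and an exact Clopper-Pearson 95% counting interval excluding equality. No molecular identifiers are stated, so intervals and floors (3 reads) cover counting error alone. No test across samples was possible with pooled values. The script was run on simulated data with counting error alone. That simulation held no variation between plants, so it does not bear on how well the calls would repeat. Python 3.11.15, pandas 2.3.3, scipy 1.17.1 and, for TMM factors, edgeR 4.0.16 were used.

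Genes and lists were chosen with earlier results of these data known. Named genes are 11 fixed ones, the 15 lower and 15 higher with the interval bound farthest from equality among genes above the median reads, up to 4 called members per list and direction, and the small sets with their own rules. Other list members named in the text were added for their roles, with their values known. The motif CCGAC was added likewise. Alternatives covered scaling, filter, pseudocount, fold, interval and pooling as a mean.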

Additional observations from a re-analysis of the deposited data

How the results depend on the processing

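The counts of 1414 lower and 1217 higher genes were within 1.5 times of these values under TMM scaling, median of ratios over both genotypes alone, no filter, a mean of at least 50 scaled reads, pseudocounts of 0.5 and 5, and pooling as a mean of 3 samples. They moved further to 2124 lower and 768 higher with total-read scaling, 2622 and 2690 at 1.5-fold, 400 and 223 at 4-fold, and 832 and 684 where the interval had to lie beyond 2-fold. Total-read scaling turned the medians of 5 lists, jasmonate and ethylene to -0.182, flavonoid to -0.053, cell cycle to -0.141, epidermal, stomatal and trichome to -0.072 and reference genes to -0.187, and removing the filter turned root and floral markers to -0.199, a median over genes with few reads. With at least 50 scaled reads no root or floral marker was left. No named gene reversed. Calls of 12 named genes were lost with total-read scaling, 60 at 4-fold, 16 with the stricter interval and 20 at the higher filter, while 4 calls were gained. There were 46 genes that passed 2-fold with an interval spanning equality, and 198 of the called genes lay within 0.05 (log2) of the threshold. Lower calls were most frequent among genes of 10 to 100 mean scaled reads (15.1%), where few reads stand behind each value. Higher calls made up 11.3% of the genes in that range and 14.3% (30 of 210) of those above 10000. No paired analysis was possible because the table holds 1 pooled value per genotype, and for the same reason leaving out each replicate was not run. Variation between plants and the other mutations a mutagenised line may carry therefore cannot be told apart from the effect of the allele.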

Other observations

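By a rule chosen after the values had been seen, genes were sought in which *sadr1-26.6* stood at least 4-fold apart from each of the other 3 genotypes, with counting intervals that excluded equality and at least 30 scaled reads somewhere. There were 2 such genes below and 6 above. AT2G04380 had no read in *sadr1-26.6*, while ADR1-L2 DV had 41.6 scaled reads, the line *sadr1-30.4* 50.6 and Col-0 36.4. AT1G74290 had 3 pooled reads in *sadr1-26.6*, while ADR1-L2 DV had 98, the line *sadr1-30.4* 29 and Col-0 67. Among those above, AT1G63530 was the best read, with 214 scaled reads in *sadr1-26.6*, while ADR1-L2 DV had 28.9, the line *sadr1-30.4* 21.7 and Col-0 27.0. *ADS1*, a fatty acid desaturase, had 46.4 in *sadr1-26.6* against 5.9 in ADR1-L2 DV, with 0 in *sadr1-30.4* and 2.1 in Col-0. *DAA1* had 111 in *sadr1-26.6* against 13.6 in ADR1-L2 DV, beside 25.8 in *sadr1-30.4* and 14.5 in Col-0. AT5G26270 had 36.7 in *sadr1-26.6* against 5.1 in ADR1-L2 DV, beside 2.1 in *sadr1-30.4* and 3.1 in Col-0. AT1G58684 and AT1G58983 had 45.3 and 34.5 scaled reads in *sadr1-26.6* and none in the others, but they are near-identical copies of a ribosomal protein gene, so their values are uncertain. Each of these is a single pooled value, and which of them, if any, belongs to the *SADR1* mutation was not tested.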
